A study of Mus musculus with 10 samples.

Results

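The subject here is a split within 1 genotype: P81S teratoma replicates 1 and 2 were set against P81S replicates 3 and 4. These are 4 of 10 arrays, and the 2 pairs were chosen from values of the same arrays, because transcripts of chromosome 11 genes were lower in replicates 1 and 2. Every difference between the pairs is therefore a description, without a test. The tumours grew from Vhl-/- J1 embryonic stem cells of strain Sv/129 that carried a human VHL cDNA, injected under the skin of both flanks of female nu/nu mice. The 3 genotypes were wildtype VHL (3 arrays), R167Q (3 arrays) and P81S (4 arrays). The labels call the P81S teratomas apoptosis-resistant. Per the study design, the P81S arrays cover 2 clones with 2 replicates of each, but no label ties an array to its clone, so the pairs cannot be equated with the clones. Whether 2 tumours shared a mouse is not stated either, and the spread between arrays may be partly technical.

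VHL recognises hypoxia-inducible factors and directs their ubiquitination, and all donor cells here lacked the mouse gene and carried the human cDNA. Teratomas are mixtures of tissues from all germ layers, so a bulk array reads both the makeup of the tumour and the activity of its cells. Embryonic stem cells in culture can gain or lose whole chromosomes, and the transcripts of most genes then follow the number of gene copies, although some genes are buffered. DNA copy number was not measured in these arrays. Mouse chromosome 11 holds Trp53, which had no single-gene probe set here, together with Nf1, Brca1, Stat3, Top2a, the skeletal myosin heavy chain cluster, the type I keratins and the Hoxb cluster.

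The unit of every value is the deposited log2 level, in which 1 unit is a 2-fold difference. A pair difference is the mean of replicates 1 and 2 minus the mean of replicates 3 and 4, and its standard error (SE) comes from a model of all 10 arrays. Each of 18820 genes had 1 probe set, and 1469 of these genes lay on chromosome 11. Of the chromosome 11 genes, 814 had a mean level above 8.01 log2, the median of all genes. Array medians ran from 6.97 to 7.11 log2, and no depth is defined for an array. The pairs were not the closest arrays over all genes. Replicates 3 and 4 correlated at 0.9889 across genes and replicates 2 and 3 at 0.9885, whereas replicates 1 and 2 correlated at 0.9666. Replicates 1 and 2 differed by 1 log2 or more in 1300 genes, against 314 genes for replicates 3 and 4. Y-linked genes set the wildtype arrays apart: Eif2s3y, Uty and Kdm5d had means of 4.54, 4.21 and 4.65 there, against 9.96, 9.03 and 9.01 in R167Q, and 8.09 to 9.91 over the P81S arrays. J1 is a male line, and why these genes were low in the wildtype arrays was not tested. Values set against the other genotypes are therefore also given for R167Q alone where they carry a result. Much of what separates replicate 1 from the rest is thus not shared with replicate 2, and results that rest on replicate 1 are given with and without it.

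Transcripts of chromosome 11 genes were lower in replicates 1 and 2 along the whole chromosome. The median pair difference of its 814 genes was -0.36, which puts the typical gene at 77.9% of its level in replicates 3 and 4, and 728 of them (89.4%) lay below 0. The quartiles were -0.51 and -0.19. On the 18 other autosomes the medians lay between 0.02 and 0.07, and 42.4% of 8255 genes lay below 0. Against the mean of the wildtype and R167Q arrays, the chromosome 11 median was -0.36 in replicate 1 and -0.345 in replicate 2. It was -0.02 in both replicates 3 and 4, and between -0.07 and 0.04 in the 6 wildtype and R167Q arrays. Against R167Q alone the 4 P81S medians were -0.35, -0.34, -0.01 and 0.00. By the chromosome median, the low values thus belonged to replicates 1 and 2, while single genes also lay above the other genotypes in replicates 3 and 4. Chromosome 8 was the other one that stood apart in P81S, at 0.14, 0.19, 0.13 and 0.15 in replicates 1 to 4, but it did so in both pairs.

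**Figure D1:**
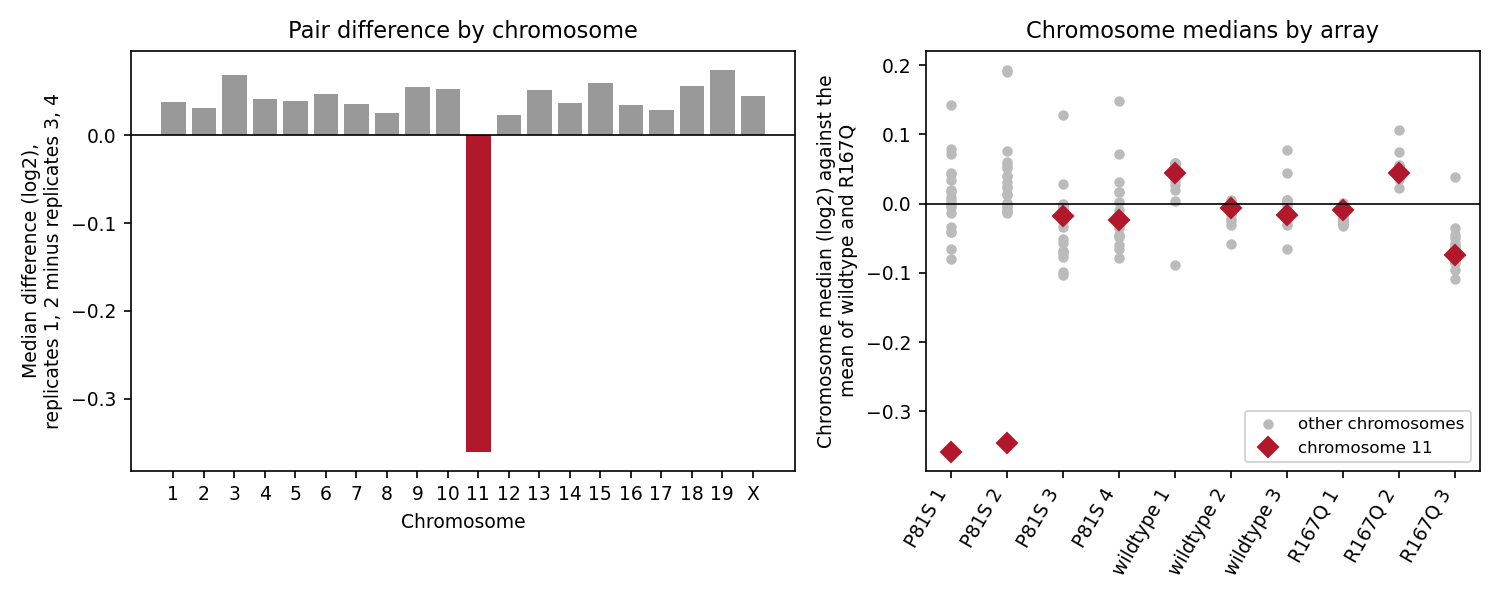
The left panel plots the median pair difference (log2, replicates 1 and 2 minus replicates 3 and 4) of genes above the median level for each chromosome; bars start at 0 and chromosome 11 is in red. The right panel plots each chromosome's median in each array against the mean of wildtype and R167Q (log2), with chromosome 11 as red diamonds and the others as grey dots: chromosome 11 lies at -0.36 and -0.345 in P81S replicates 1 and 2 and between -0.07 and 0.04 in the other 8 arrays.

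Genes were sorted into those that followed the shift and those that did not. A gene was called lower where both arrays of replicates 1 and 2 lay below both of replicates 3 and 4 and the pair difference was at least 0.2 log2, and higher in the reverse case. It was called level where the difference was under 0.1 log2 and each pair agreed within 0.3 log2. On chromosome 11, 537 genes (66.0%) were lower, against a background of 8.72% on the other autosomes. Only 12 genes (1.47%) were higher against 18.3%, and 34 (4.18%) were level against 22.1%. The remaining 231 were unclear by these rules. Since the pairs were chosen for this shift, the shares describe how far it reached and support nothing further. Different probe sets of a gene mostly gave the same sign: of 57 genes with several probe sets above the level limit, 47 had every probe set below 0, 6 had every one above, and 4 had probe sets that disagreed.

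**Figure D2:**
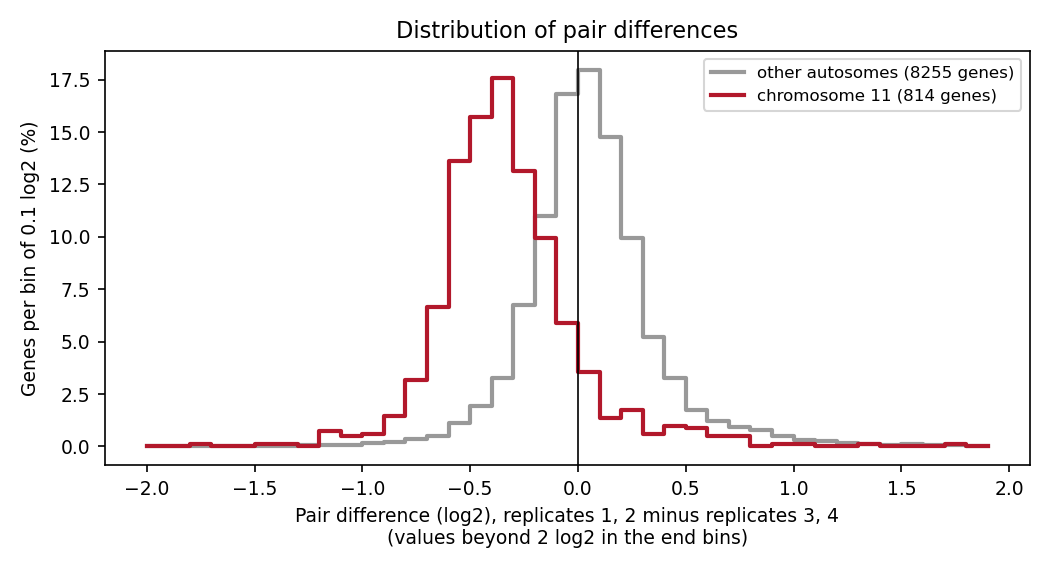
The percentage of genes per bin of 0.1 log2 is plotted against the pair difference (log2) for 814 chromosome 11 genes in red and 8255 genes of the other autosomes in grey, all above the median level. The red curve is moved as a whole to a median of -0.36, and the grey curve is centred at 0.04.

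No stretch of the chromosome stood out. In 10 stretches of equal gene number, ordered along the chromosome, the medians ran from -0.41 to -0.31 and the share of lower genes from 58.0% to 75.6%. The first stretch, from Rn28s1 to Lgalsl, had a median of -0.38, and the last, from Unk to Metrnl, had -0.39. The stretch from Mapk9 to Alkbh5 was the deepest, and the one from Nufip2 to Ska2 the shallowest. Genes with little signal showed less of the shift: split at the quartiles of level of all genes, the chromosome 11 genes had medians of -0.01 in the lowest class, then -0.24 and -0.40, and -0.35 in the highest. How steady a gene was in the wildtype and R167Q arrays changed the picture little, with medians of -0.35 for steady genes and -0.39 for variable ones.

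**Figure D3:**
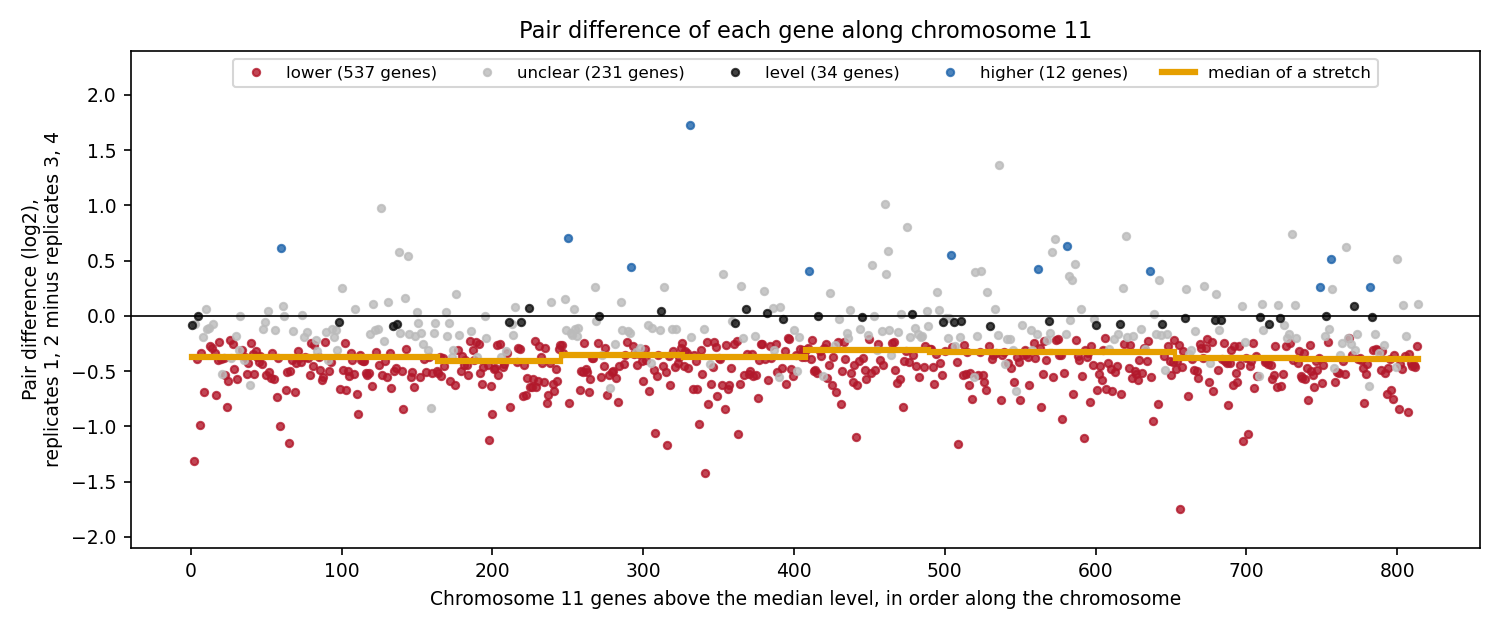
Each point is a chromosome 11 gene above the median level, placed by its order along the chromosome (horizontal) and its pair difference in log2 (vertical), and coloured by class. Orange bars are the medians of the 10 stretches, which stay between -0.41 and -0.31 from one end to the other, with the 12 higher genes in blue scattered among them.

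Subunits of large assemblies gave a like-for-like view, because their partners are encoded on other chromosomes. In 10 gene families picked by symbol, 42 of 63 chromosome 11 members (66.7%) were lower, 1 was higher and 4 were level. The share of lower genes over all 814 chromosome 11 genes was 66.0%, so the families together fell about as often as their chromosome. Of 451 members on other autosomes, 26 (5.76%) were lower. All 10 chromosome 11 genes of the mitochondrial ribosome were lower, with a median of -0.49 beside -0.06 for 56 partners elsewhere. Mrpl55, a large-subunit protein, had the deepest difference of them at -0.65. All 4 respiratory chain genes were lower as well, with a median of -0.54 beside -0.11: Uqcr10 of complex III differed by -0.82, Atp5h of the ATP synthase by -0.57, Uqcrq by -0.52 and Atp5g1 by -0.33.

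By their own medians the following families moved by less, but their partners elsewhere also stood higher than those of the mitochondrial families. The 6 ribosomal protein genes of chromosome 11 had a median of -0.29 beside 0.06 for 60 others, and 4 of them were lower. Rpl26, of the large subunit, read 10.81 and 10.65 in replicates 1 and 2, and 11.08 and 11.09 in replicates 3 and 4, a small step without overlap. Among 8 proteasome genes 6 were lower, with a median of -0.23 beside 0.08 for 33 others. Psmb6, a catalytic-core subunit, stood at -0.41 and Psme4, an activator, at 0.06. Mediator and RNA polymerase genes had a median of -0.29 beside 0.12 for 42 others. They ran from Med9 at -0.72 to Polr2a, the largest subunit of polymerase II, at 0.26. In the coat and vesicle-traffic group, the symbol rule also let in the lipid-binding Sec14l1 and Sec14l2. There 6 of 9 were lower, with a median of -0.41 beside 0.06 for 66 others. Both Vps25 and Vps53 stood at -0.48. Of 3 mitochondrial carriers, Slc25a11 and Slc25a39 were lower.

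A smaller share of the RNA-processing and translation members was called lower. Of 11 splicing genes 5 were lower, among them Lsm11 at -0.55 and Ddx5 at -0.23. Lsm11 read 8.19 and 8.99 against 9.20 and 9.08, so replicate 1 carried most of its difference. Another Ddx5 probe set was at -0.11 with overlapping pairs, so the lower call of Ddx5 depended on the probe set. The median of the 11 splicing genes, -0.19, stood beside 0.10 for 49 splicing genes elsewhere, of which 17 were higher. Prpf8, the core scaffold of the spliceosome, was level at 0.02, and the splicing regulators Srsf1 and Srsf2 had differences of 0.22 and 0.26. None of the 3 translation factors was lower, with a median of 0.05 beside 0.09 for 46 elsewhere. Eif4a1, an RNA helicase of translation initiation, read 12.85 and 12.88 against 12.93 and 12.71. Its relative Eif4a3, of the exon junction complex, had a difference of 0.09 ± 0.20. In both genes the pairs overlapped, and all 4 P81S arrays lay below the 6 other arrays, which ran from 13.09 to 13.19 for Eif4a1 and from 9.58 to 10.53 for Eif4a3.

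The 10 largest falls on chromosome 11 went well beyond the median, and several of these genes belong to muscle or to myelin. Myl4, a myosin light chain of embryonic and atrial muscle, read 10.06 and 8.26 in replicates 1 and 2, and 11.04 and 10.78 in replicates 3 and 4. Its difference was -1.75 ± 0.61 (SE), or 3.36-fold, and replicates 1 and 2 were far apart. Eno3, the muscle enolase, read 8.45 and 8.57 against 10.10 and 9.76 (difference -1.42 ± 0.33). Its pairs were tight, and replicates 1 and 2 lay below all wildtype and R167Q arrays (8.98 to 10.25). Cnp, a myelin enzyme, read 10.81 and 11.16 against 11.96 and 12.21, and Omg, a myelin glycoprotein, read 8.41 and 8.40 against 9.27 and 9.73. Both differed by -1.10, with SEs of 0.31 and 0.34.

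The other 6 were not of muscle or myelin lists. Sfi1, a centrin-binding protein of centrosomes, read 8.22 and 8.75 against 9.59 and 10.02 (-1.31 ± 0.24), with the wildtype and R167Q arrays from 9.33 to 9.95. Kcnj16, an inward-rectifier potassium channel, had means of 8.83 in replicates 1 and 2 and 9.96 in replicates 3 and 4 (-1.13 ± 0.19). The pairs of both genes lay well apart. Fgf11 (-1.17), Car10 (-1.16) and Vstm2a (-1.15) followed, and for each of them replicates 3 and 4 lay above every wildtype and R167Q array. Pdlim4, a cytoskeletal adaptor, differed by -1.12. In all, 13 chromosome 11 genes above the level limit were at least 2-fold lower without overlap, and 1 was at least 2-fold higher.

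That 1 gene was Alox15, a lipoxygenase, which read 10.12 and 8.33 in replicates 1 and 2, and 7.80 and 7.19 in replicates 3 and 4 (1.73 ± 0.48). Replicate 1 carried most of the difference. The 10 largest rises also held Shmt1 of one-carbon metabolism (0.71), Top2a, the replication-linked topoisomerase (0.63), Upp1, a uridine phosphorylase (0.62), Pctp, a phosphatidylcholine carrier (0.55), and Tk1, the thymidine kinase of S phase (0.52). Aurkb, a mitotic kinase (0.44), Snora21, a small nucleolar RNA (0.42), Pipox (0.41) and the Wnt receptor Fzd2 (0.40) completed them. Bahcc1 (0.27) and Srsf2 made up the 12.

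The higher genes were also low in P81S as a whole. In 9 of 12 both arrays of replicates 1 and 2 lay below all 6 wildtype and R167Q arrays, and in 10 both arrays of replicates 3 and 4 did. Their median against the mean of the other genotypes was -0.99 in replicates 1 and 2 and -1.46 in replicates 3 and 4, and against R167Q alone -0.83 and -1.31. The sorting used the same arrays and favours low values of replicates 3 and 4 in these genes, so this is a description of the class and no support for it. Upp1 showed this at its plainest, with 8.93 and 8.83 against 8.41 and 8.12, and 10.45 to 11.51 in the other genotypes. Top2a read 10.02 and 10.11 against 9.86 and 9.01, beside 11.04 to 11.73, and replicate 4 made up most of the gap.

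For the lower genes, where the sorting favours the reverse, the medians against the other genotypes were -0.32 in replicates 1 and 2 and 0.14 in replicates 3 and 4 (-0.33 and 0.14 against R167Q alone). In 282 of 537 (52.5%) both arrays of replicates 1 and 2 lay below all 6 wildtype and R167Q arrays. Both arrays of replicates 3 and 4 lay above all 6 in 226 (42.1%) and below all 6 in 106, and their mean lay within the range of the 6 in 152 (28.3%). The 34 level genes stood at -0.24 and -0.26 in the 2 pairs. Among them, named after their values were seen, were Msi2, an RNA-binding regulator of stem cells, at 11.62 and 11.64 against 11.64 and 11.74, and Rars, the arginine tRNA synthetase, at 11.12 and 11.12 against 11.18 and 11.24. All 4 values of Msi2 lay within or at the edge of the range of the other genotypes (11.62 to 11.91), and those of Rars below it (11.45 to 11.71).

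The probe set chosen for a gene mattered for a few of these calls. On this array probe sets mostly run in number by chromosome, and 25 of the 814 genes had a probe set whose number lies among those of another chromosome. Of these 25, 9 were lower, 1 was higher and 6 (24.0%) were level. Of the 789 with a chromosome 11 number, 528 (66.9%) were lower, 11 higher and 28 (3.55%) level. The 6 level genes were Actg1 for cytoplasmic actin, Sumo2 for a ubiquitin-like modifier, Eif4a1, Tax1bp3, Rn28s1 and Gm12070, and the higher gene was Tk1. Other probe sets of these genes, numbered among chromosome 11, were at -0.05 for Actg1, -0.02 for Eif4a1 and 0.06 for Tax1bp3, also near 0. For Tk1 that probe set was at 0.19 with overlapping pairs, so the higher call of Tk1 was lost there. Among the 9 lower genes, that of Psmb3 was at -0.13, short of 0.2, so its lower call was lost as well. The other lower genes with such a probe set kept the call.

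Genes of DNA damage, growth control and metabolism, the topics of the study, divided in the same way. Of 31 such genes on chromosome 11, 15 had replicates 1 and 2 lower without overlap and 3 had them higher. Over all 1469 chromosome 11 genes, 53.6% were lower and 4.83% higher without overlap, so the topic genes fell about as often as their chromosome. Over all genes of the array the shares were 17.9% lower and 20.6% higher. The list's chromosome 11 median was -0.21. Nf1, a brake on Ras signalling, read 11.13 and 11.06 against 11.55 and 11.54 (-0.45 ± 0.10). The wildtype and R167Q arrays ran from 10.83 to 11.19 for Nf1, so replicates 1 and 2 lay within that range and replicates 3 and 4 above it. For Stat3, a cytokine-activated transcription factor, the values were 10.92 and 10.60 against 11.01 and 11.40 (-0.45 ± 0.18), so its pairs only just parted. Rad51c, a recombination factor, had a difference of -0.47 with overlapping pairs, and the glycolytic Aldoc one of -0.63 without overlap. Against the mean of the other genotypes, Aldoc stood at 0.46 in replicates 1 and 2 and at 1.08 in replicates 3 and 4.

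Apart from Rad51c, the repair and checkpoint genes named here gave smaller differences. Rpa1, which binds single-stranded DNA, and Lig3, a DNA ligase, both stood at -0.26. Rad50, of the break-sensing MRN complex, read 8.69 and 8.46 against 8.74 and 8.40 and differed by 0.00 ± 0.22. Brca1 read 7.38 and 8.04 against 7.80 and 7.11 (0.26 ± 0.31), and its pairs overlapped. Birc5, the survivin gene, read 7.14 and 7.20 against 7.25 and 6.60 (0.24 ± 0.26), with overlap too. The phosphatase Ppm1d and the kinase Cdk12 were level, at 0.02 and -0.04. Another Cdk12 probe set, with weaker signal, was at -0.48 without overlap, so the level call of Cdk12 depended on the probe set. Rad50, Brca1, Birc5, Ppm1d and Cdk12 were all lower in the 4 P81S arrays than in every array of the other genotypes.

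Off chromosome 11, the pairs also differed in a limited set of genes. Of 17351 genes there, 155 were at least 2-fold higher and 97 at least 2-fold lower in replicates 1 and 2 without overlap. Over all 18820 genes, chromosome 11 included, the shares were 0.84% higher and 0.664% lower. Of the 155 higher genes, 42 were at least 1 log2 higher in replicate 1 than in replicate 2. Where arrays within each pair also agreed to within 1 log2, 72 higher and 57 lower genes were left. Chromosome 12 held 25 of the 97 lower genes and only 5 higher ones, more lower genes than any other chromosome off chromosome 11. Of these 25, 22 were noncoding genes of 1 interval, from Dlk1 to Dio3, described below.

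Of the 10 largest rises elsewhere, Dlk1 led. Dlk1, a membrane protein of the Delta family and an imprinted growth regulator, read 10.91 and 10.94 in replicates 1 and 2, and 8.20 and 8.96 in replicates 3 and 4. The difference was 2.34 ± 0.41, or 5.07-fold, and replicates 1 and 2 lay above the range of 7.47 to 9.53 in the other genotypes. Fndc3c1, an X-linked gene, gave 9.18 and 9.01 against 7.50 and 6.73 (1.98 ± 0.38), and Dbx1, a homeobox factor of the developing brain, gave 9.15 and 9.06 against 7.93 and 6.23 (2.02 ± 0.42). Tbx3, a T-box factor, read 9.87 and 9.60 against 7.26 and 8.37 (1.92 ± 0.42), and Prg4, the joint lubricant lubricin, differed by 1.87 ± 0.60.

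The other 5 of those rises came from replicate 1. Dsp and Dsg3, of desmosomes, Cnfn, of the cornified envelope, Dapl1, an epithelial gene, and Cyp4a12b, a cytochrome P450, differed by 2.04, 1.93, 1.88, 1.87 and 1.95. Cnfn shows the form: it read 10.43 in replicate 1, and 6.75, 6.67 and 6.75 in replicates 2 to 4. Without replicate 1 the squamous epithelium list turned from a median of 1.28 to -0.18.

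Of the falls elsewhere, Nxf3 was the largest. This X-linked member of the RNA-export factor family read 6.93 and 8.43 against 10.15 and 10.04 (-2.41 ± 0.38), and the other genotypes held 10.66 to 11.17. Epha6, an ephrin receptor of neurons, read 6.41 and 7.11 against 8.53 and 8.62 (-1.81 ± 0.30), and Cntn6, a neural adhesion molecule, read 5.55 and 6.35 against 7.63 and 8.12 (-1.92 ± 0.44). In these 3 genes no array of 1 pair came near the other. Myl1, Atp2a1, Tnnt3, Actc1 and Myot, all of striated muscle, differed by -2.19, -1.79, -1.76, -1.75 and -1.61, and Pvalb, a calcium buffer of fast muscle and interneurons, by -1.83. The last of the 10 was Mir376a of chromosome 12.

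Mir376a lies in the Dlk1 to Dio3 interval, where imprinting gives the protein-coding genes to the paternal copy and the noncoding RNAs Meg3 and Rian, with a long chain of microRNAs, to the maternal copy. The interval was examined after its values were seen. The following mature sequences from RefSeq (GRCm38.p6, plus strand), 5′ to 3′ with the seed (bases 2 to 8) in capitals, are shown because their genes were at least 2-fold lower or because they share a seed. The array reads the gene's transcript and not the processed arm.
miR-379-3p (chr12:109709102-109709123): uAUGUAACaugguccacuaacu
miR-411-3p (chr12:109710225-109710246): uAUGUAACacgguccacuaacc
miR-376c-5p (chr12:109722733-109722754): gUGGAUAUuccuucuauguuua
miR-376b-5p (chr12:109723471-109723492): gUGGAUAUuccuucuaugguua
miR-376b-3p (chr12:109723508-109723528): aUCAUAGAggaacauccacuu
miR-376a-3p (chr12:109723824-109723844): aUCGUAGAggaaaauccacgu
miR-300-3p (chr12:109724363-109724384): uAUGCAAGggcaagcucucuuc
miR-381-3p (chr12:109726870-109726891): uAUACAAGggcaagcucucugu
miR-369-3p (chr12:109743466-109743486): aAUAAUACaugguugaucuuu
miR-379-3p and miR-411-3p share the seed AUGUAAC, and miR-376b-5p and miR-376c-5p share UGGAUAU. These were the 2 shared seeds among 66 seeds of 68 arms from the 36 measured microRNA genes. The genes with lower values thus carry nearly as many seeds as arms.

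All 39 noncoding genes measured between Dlk1 and Dio3 lay below 0, opposite to Dlk1. Their median was -1.05 (range -1.84 to -0.15), 34 had pairs that did not overlap, and 22 were at least 2-fold lower. Meg3 read 10.96 and 11.82 against 12.40 and 12.62 (-1.12 ± 0.26), and Rian read 7.85 and 8.76 against 9.21 and 9.44 (-1.02 ± 0.28). Mir411 read 5.08 and 5.87 against 7.01 and 6.82 (-1.44 ± 0.38), and Mir381 read 4.70 and 5.46 against 6.74 and 6.39 (-1.48 ± 0.30). The order was the same in these 4 genes: replicate 1 lowest, replicate 2 between, and replicates 3 and 4 highest.

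That order ran through the interval. Against the mean of the other genotypes, the median of the 39 genes was -0.72 in replicate 1, 0.32 in replicate 2, 0.88 in replicate 3 and 0.79 in replicate 4, and between -0.48 and 0.42 in the wildtype and R167Q arrays. Against R167Q alone it was -0.93, 0.10, 0.67 and 0.59. Replicate 1 was the lowest P81S array in 38 of them and below all 9 other arrays in 27. Replicate 2 lay below both replicates 3 and 4 in 35, and without replicate 1 the median was -0.51. By these medians, replicate 2 lay within the range of the other genotypes, replicate 1 below it, and replicates 3 and 4 above it. Among 267 microRNA genes elsewhere, 68 (25.5%) had replicates 1 and 2 lower without overlap, 3 were at least 2-fold lower, and the median was -0.06. The 20 flanking genes had a median of 0.09 and none differed 2-fold, and Dio3, an enzyme that inactivates thyroid hormone, read 5.83 and 5.63 against 5.42 and 5.56.

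**Figure D4:**
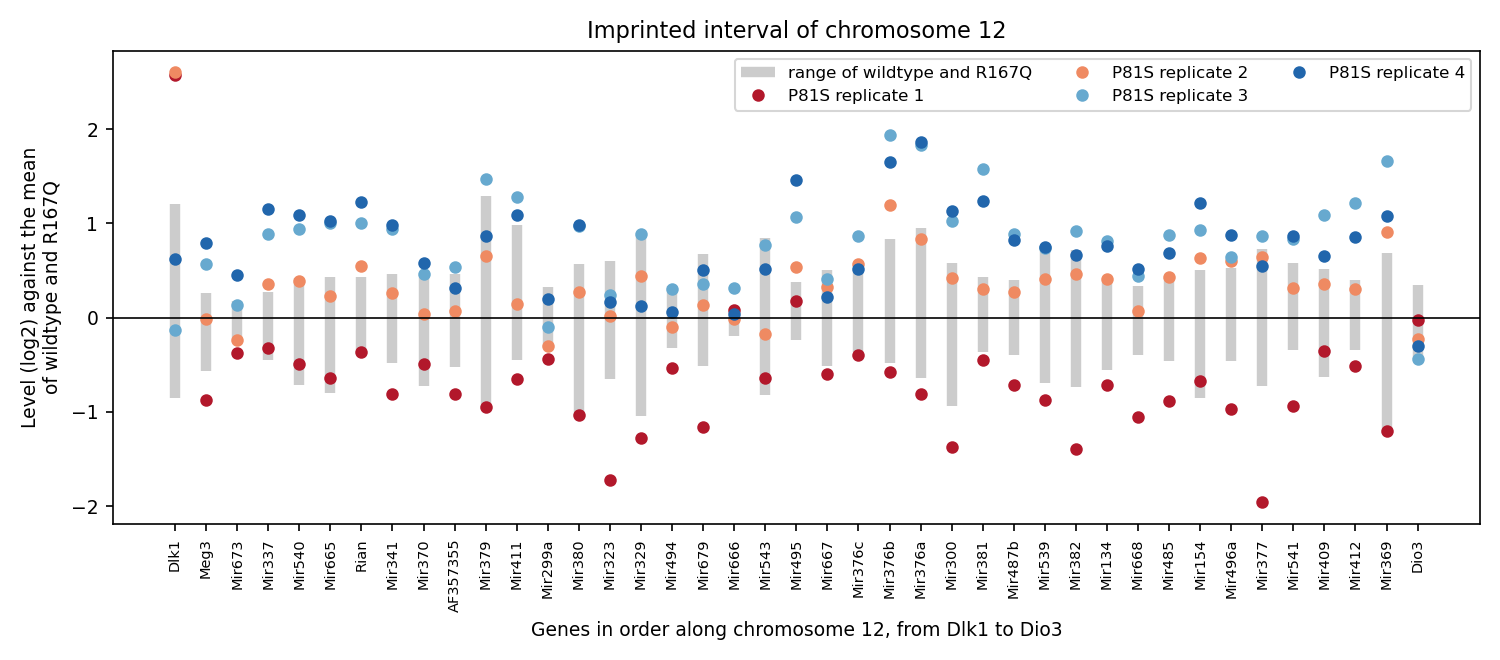
The level of each measured gene from Dlk1 to Dio3 (log2, against the mean of wildtype and R167Q) is plotted in gene order for the 4 P81S arrays as coloured points, with the range of the 6 wildtype and R167Q arrays as grey bars. Dlk1 is high in replicates 1 and 2, and the 39 noncoding genes are lowest in replicate 1 (median -0.72) and highest in replicates 3 and 4 (0.88 and 0.79).

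Imprinted genes of other regions showed no such fall as a group. A list of 25, made after the values were seen, had a median of 0.05. In it 10 were higher and 4 lower without overlap, beside 20.6% and 17.9% of all genes. Rasgrf1, a Ras exchange factor, read 7.94 and 7.45 against 5.96 and 6.14 (1.65 ± 0.36), and Zim1, a zinc-finger gene, read 8.50 and 8.49 against 7.51 and 7.24 (1.12 ± 0.40). These were the 2 members that were at least 2-fold higher, beside 0.84% of all genes.

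Several tissue lists differed between the pairs. In bulk tumours, fewer cells of a type and less RNA per cell cannot be told apart. Striated muscle genes were lower: 18 of 27 were at least 2-fold lower, beside 0.664% of all genes. None was 2-fold higher, and the median was -1.30. The list mean was 7.36 and 6.41 in replicates 1 and 2, and 8.37 and 7.81 in replicates 3 and 4. The wildtype and R167Q arrays spread from 6.42 to 8.24, so the list mean spread as widely among the other genotypes. The myogenic factors Myog (-1.43) and Myod1 (-1.16) were lower along with the contractile Acta1 (-1.45), Ckm (-1.38) and Ttn (-1.23). In the skeletal myosin cluster of chromosome 11, Myh1, Myh8, Myh4 and Myh3 were at least 2-fold lower. Off chromosome 11 the muscle median was still -1.23.

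Oligodendrocyte genes were lower too, with a tighter split. The list of 12 had a median of -0.998, 6 members were at least 2-fold lower, and 10 were lower without overlap, beside 17.9% of all genes. List means were 8.43 and 8.63 against 9.36 and 9.54. Replicates 3 and 4 lay above the range of 8.48 to 9.28 in the other genotypes, and replicate 1 just below it. Mobp (-1.59), Mag (-1.58) and Mog (-1.38) of compact or mature myelin had the deepest differences, whereas Olig2 (-0.45) and Olig1 (-0.51), factors of the lineage, had smaller ones, and Pdgfra, a receptor of the precursors, stood at 0.04. Without Cnp, its chromosome 11 member, the list had a median of -0.93, and without replicate 1 the whole list had -0.90.

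The other neural lists differed by less. Astrocyte genes went the same way as myelin genes in most members: 14 of 15 lay below 0 and 8 were lower without overlap, beside 17.9% of all genes, with a median of -0.24. Off chromosome 11, 5 of 11 were lower without overlap, and S100b, a calcium-binding protein of glia, stood at -1.02. The astrocyte means of 11.14 and 10.98 against 11.10 and 11.64 overlapped. Of 20 neuronal genes 7 were lower and none higher without overlap (median -0.15), with means of 10.76 and 11.12 against 11.11 and 11.13. Without replicate 1 the neuronal median turned to 0.04, so its sign rested on replicate 1. Neural progenitor genes were higher, with a median of 0.52, 13 of 22 higher without overlap (20.6% of all genes), and list means of 9.76 and 9.79 against 9.32 and 9.12. Replicates 1 and 2 lay above the range of 9.03 to 9.48 in the other genotypes, while replicates 3 and 4 lay within it. Sox1, an early neural factor, was higher by 0.60, Neurog2, a proneural factor, had a difference of 1.02 with overlapping pairs, and Pax6 (-0.01) and Vim (-0.02) were near 0.

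Factors of the forebrain and hypothalamus were higher. A list of 20 regional factors was made after the values were seen. In it 11 were at least 2-fold higher in replicates 1 and 2, beside 0.84% of all genes, and none was 2-fold lower. The median was 1.19, and the choice of members favours both the count and the median. The list means were 8.47 and 8.38 against 7.37 and 7.49, and the other genotypes spanned 7.04 to 7.30. Nkx2-1 (1.79), Six6 (1.77), Fezf2 (1.69), Rax (1.36) and Otx2 (1.29), which pattern the anterior brain and eye field, were among the 11, with Dbx1 and Tbx3. Otp (-0.11), Lhx9 (0.00), Hmx3 (0.15) and Nr5a1 (0.19), factors of particular hypothalamic nuclei, were near 0. Emx2, Lhx2 and Otx2 also stand in the progenitor list, where they had the 3 largest differences. A retina list of 17 had a median of 0.14.

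**Figure D5:**
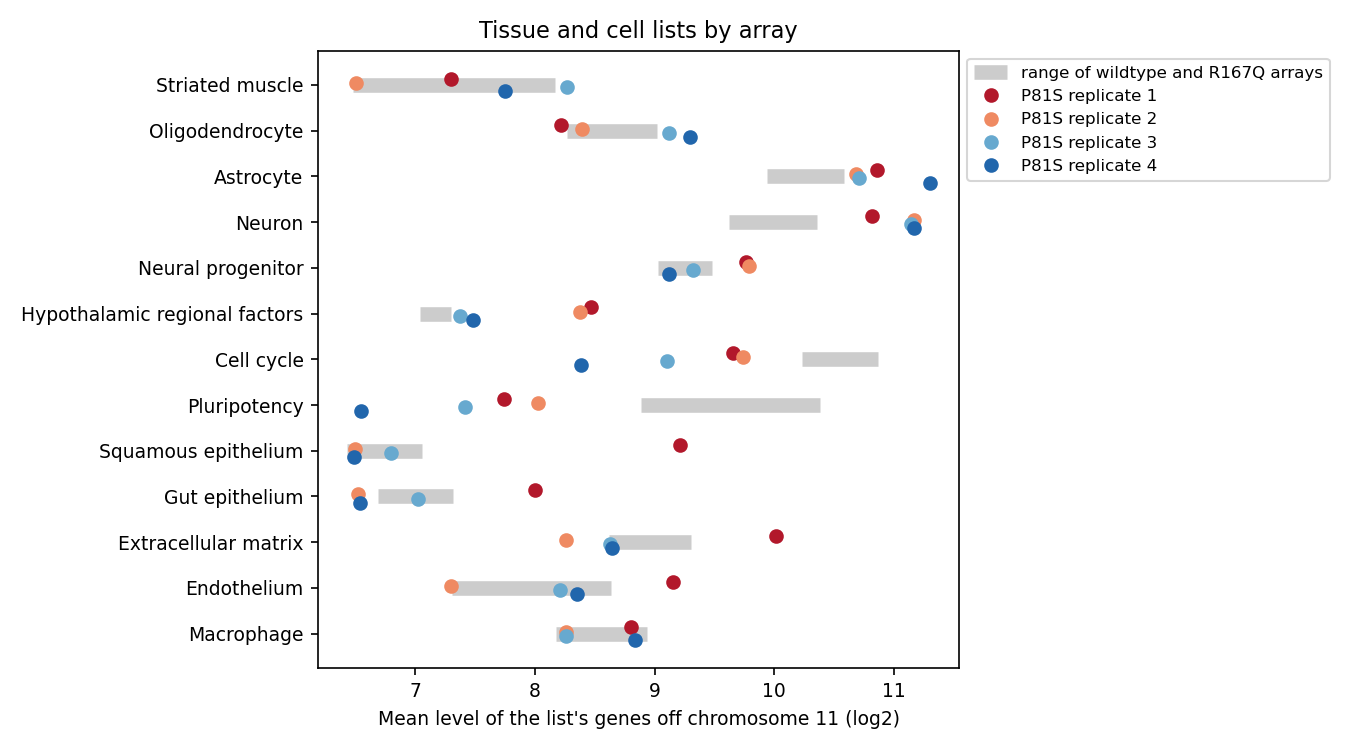
The mean level (log2) of the genes of 13 lists, chromosome 11 genes left out, is plotted for each P81S array as a coloured point, with the range of the 6 wildtype and R167Q arrays as a grey bar. Oligodendrocyte genes separate the pairs downwards and hypothalamic regional factors upwards, whereas squamous epithelium, gut and matrix genes set replicate 1 alone apart from the other 3.

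Proliferation genes were higher in replicates 1 and 2. In the cell cycle list 25 of 26 were higher without overlap, beside 20.6% of all genes, and 9 at least 2-fold, with a median of 0.92. The list means were 9.58 and 9.67 against 9.08 and 8.37, and all 4 lay below the other genotypes (10.20 to 10.84). Replicate 4 stood further from replicate 3 than replicate 3 did from replicate 1, so the split was partly a low value in replicate 4. Bub1 (1.39), a spindle checkpoint kinase, Mcm2 (1.28), of the replicative helicase, and Bub1b (1.26), another spindle checkpoint kinase, had the largest differences. The 3 members on chromosome 11 were Top2a, Aurkb and Birc5, and at 0.63, 0.44 and 0.24 they lay below the median of 0.93 of the 23 on other chromosomes. The chromosome 11 genes that went against the shift thus included members of a list that was higher elsewhere, and whether that accounts for them was not tested. A list of 17 S-phase and histone genes made after the values were seen gave 0.86.

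Pluripotency genes followed the same order. Of 19, 7 were at least 2-fold higher and 10 higher without overlap, beside 20.6% of all genes (median 0.76), with list means of 7.74 and 8.02 against 7.41 and 6.55, all below the 8.89 to 10.38 of the other genotypes. Dppa5a (1.77), Dppa2 (1.65), Utf1 (1.57), Sall4 (1.57) and Pou5f1 (1.25) were among the 7, and Klf2 (0.04) and Esrrb (0.24) were not. Tbx3 belongs to this list and to the regional factors. Replicate 4 was again the lowest.

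Other tissues separated replicate 1 from the remaining 3 arrays and not the pairs. Extracellular matrix genes had means of 10.16, 8.41, 8.81 and 8.82 in replicates 1 to 4, and their median turned from 0.49 to -0.45 without replicate 1. Gut epithelium turned from 0.53 to -0.15 and airway secretory genes from 0.48 to -0.94. Endothelial genes read 9.01, 7.27, 8.17 and 8.28, and none had pairs that did not overlap. Macrophage genes read 8.88, 8.35, 8.35 and 8.92, which crosses the pairs. Hypoxia genes had a median of -0.12, and a set of 10 housekeeping genes had -0.01.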

How the data were processed

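Total RNA of 10 teratomas was read on 1 Affymetrix array each. The deposited values are log2 levels, 1 per probe set and array. RMA and Partek are named per the submitters' processing notes, with no versions or roles, and the genome build is not given in the sources used here. Of 35556 probe sets, 21218 were paired with 1 gene by the platform annotation, 1881 with several and 12457 with none. The probe set with the highest mean stood for each of 18820 genes (1386 had a choice). RefSeq (GRCm38.p6) gave chromosome and gene order for genes matched by Entrez number (18790). Probes of related genes may share signal.

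Pair differences, classes and list medians were computed in Python 3.11.15. The SE came from limma 3.58.1 in R 4.3.3 (4 means, trend, 6 residual degrees of freedom), checked on simulated data. No p-value is given, since the pairs came from the same values. Members, 40 lists and 10 families were chosen with earlier results of these data known, and 4 further lists after the values were seen. Named genes were the 10 largest differences in each direction on and off chromosome 11, the largest of each list, and chromosome 11 members of the families and the study's topics. Other genes, among them further members of the tissue lists, were named after their values were seen, and only some are marked so. Folds are ratios of deposited values, precision is limited by the number of arrays, and signal over background was not used here. Alternatives covered scaling, probe choice, level, thresholds and leaving out each array.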

Additional observations from a re-analysis of the deposited data

Results flagged for a closer look

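In a search of 38 list means and 45 genes for 1 P81S array far from the other 3, 4 list means and 3 genes stood apart. For independent groups of 4 not chosen by their values, chance alone would set apart about 1 in 20. The 3 flagged genes were named for their large pair differences, and Dsg3 also belongs to the squamous epithelium list. That rate therefore cannot be set against these counts. Replicate 1 was the high array for the squamous epithelium list (mean 9.29), the type II keratins (7.23), Cnfn (10.43), Cyp4a12b (8.73) and Dsg3 (8.45), and the low array for the neuronal list (10.76). Replicate 4 was the low array for the pancreas and endocrine list (7.09, with 7.15 to 7.16 in the other 3).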

How the results depend on the processing

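No paired analysis was possible because both pairs lie within 1 genotype and share no replicate number. The medians of chromosome 11 and of Dlk1 to Dio3 kept their direction under the alternatives run, but 31 of 308 list medians and 36 of 1575 single-gene values turned sign. Without replicate 1, 13 of 44 list medians turned, among them squamous epithelium (1.28 to -0.18), gut (0.53 to -0.15), airway (0.48 to -0.94), matrix (0.49 to -0.45), type I keratins (0.27 to -0.07) and Hoxb (-0.27 to 0.08). Without replicate 2, 8 turned, endothelium to 0.80 the farthest. The chromosome 11 median of -0.36 was -0.37 after quantile normalization, -0.41 after centring on the other autosomes, -0.26 for genes of all levels, -0.35 for genes above the upper quartile of level, -0.37 for genes whose probe set number lies among chromosome 11 numbers (chosen after seeing the data, like the reference of R167Q alone), and between -0.37 and -0.32 with each array left out. The count of higher chromosome 11 genes (12) was 46 at all levels and between 13 and 60 with each array left out, where a lone array makes overlap rarer. Lower chromosome 11 genes stayed within 1.5 times of 537. Off chromosome 11, the 155 higher and 97 lower genes became 625 and 397 at 1.5-fold, 84 and 30 above the median level, and 124 to 804 and 107 to 212 with each array left out. The Dlk1 to Dio3 median of -1.05 ran from -1.59 without replicate 2 to -0.51 without replicate 1. Of the values of single genes under all alternatives, 35 moved by more than the spread between replicates and 1540 did not. For list medians these numbers were 43 and 265. Weak signals near the floor limit the reading of low genes, and 2 arrays a pair limit every difference.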

Other observations

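Chromosome 11 gene clusters with low levels did not follow the shift uniformly. The 9 measured Hoxb genes, which pattern the body axis, had a median of -0.27 and 0.08 without replicate 1, beside 0.07 for 27 other Hox genes. The 27 type I keratins had a median of 0.27, which turned to -0.07 without replicate 1. Of 11 CC chemokine genes, Ccl2 (-1.01) was at least 2-fold lower, whereas Ccl9 (0.79) and Ccl6 (1.01) had overlapping pairs. Gabrb2, a GABA receptor subunit, differed by -0.84.

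The Y-linked Eif2s3y read 8.51, 9.91, 9.82 and 9.61 in P81S replicates 1 to 4. The Y-linked Uty read 8.68, 9.12, 8.83 and 8.59, and Kdm5d 8.09, 8.81, 8.89 and 8.54. Xist, the RNA of X inactivation, read 6.79, 7.50, 7.54 and 8.10. The mouse Vhl probe set read 8.49, 8.78, 8.53 and 8.90 in P81S, and 6.91 and 6.99 as means of wildtype and R167Q.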
